A study of Caenorhabditis elegans with 2 samples.

Results

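Within the reproducible peaks of the C. elegans homeodomain protein CEH-27, 250 of 2328 lay in introns of autosomal protein-coding genes and away from promoters. The rule that picked them uses the annotation around each summit and no signal value. The summit had to be on chromosomes I to V, inside a protein-coding transcript and in no exon of a protein-coding gene. It also had to lie outside the window from 1000 bp upstream to 200 bp downstream of every protein-coding 5' end, and more than 200 bp from any tRNA gene. These 250 peaks made up 13.9% of the 1803 autosomal peaks, beside 1037 in promoters, 354 between genes, 118 near tRNA genes and 44 in exons.

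The peaks came from ChIP-seq, which sequences the DNA recovered with a crosslinked protein, on whole worms of strain OP139, with a GFP antibody. That strain carries wgIs139, a transgene made from a ceh-27 fosmid with TY1, EGFP and 3xFLAG tags and an unc-119(+) marker, in unc-119(ed3) worms. The young adults were 73 hours old, of both sexes pooled, and had been synchronized as starved L1 larvae. The 2 biological replicates, which the labels number 1 and 4, formed a single group, so no condition was compared. Signal came from all cells of the animal together, and the tagged protein came from an added transgene. The named control was not analysed here.

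CEH-27 belongs to the NK-2 class of homeodomain proteins, which bind DNA through a short core, AAGTG. Introns of worm genes are mostly short. The long ones are known to hold enhancers, internal promoters of shorter isoforms, and nested genes for small noncoding RNAs such as snoRNAs, which guide chemical modification of other RNAs.

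Several short sequences recurred at the summits, and the windows below show them. Each runs from 50 bp before to 50 bp after the summit on the plus strand of WBcel235 (ce11), read from the RefSeq sequence of that assembly. In the first 4, capitals mark CTGCGTCTC or its reverse complement. Among all these intronic peaks they are the 4 strongest with that sequence. They lie in introns of Y111B2A.12 (III:12612619-12612719), Y43F8B.2 (V:19529353-19529453), the autophagy gene epg-9 (IV:2602138-2602238) and the Mediator subunit gene mdt-26 (II:5661846-5661946). In gei-4 (III:349894-349994) capitals mark GAGAG.
Y111B2A.12: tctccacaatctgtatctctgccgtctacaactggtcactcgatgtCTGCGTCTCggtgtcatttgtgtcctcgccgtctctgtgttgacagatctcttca
Y43F8B.2: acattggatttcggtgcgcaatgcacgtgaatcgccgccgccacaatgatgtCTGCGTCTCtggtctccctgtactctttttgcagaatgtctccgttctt
epg-9: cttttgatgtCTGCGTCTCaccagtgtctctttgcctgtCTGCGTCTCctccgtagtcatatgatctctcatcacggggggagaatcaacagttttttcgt
mdt-26: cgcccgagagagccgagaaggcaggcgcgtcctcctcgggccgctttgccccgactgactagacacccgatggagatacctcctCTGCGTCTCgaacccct
gei-4: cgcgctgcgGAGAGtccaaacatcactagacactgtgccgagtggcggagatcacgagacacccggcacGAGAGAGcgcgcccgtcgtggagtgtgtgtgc

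The next 3 windows are summits at nested snoRNA genes, in introns of frm-7 (V:12303580-12303680), cutl-18 (V:11314173-11314273) and twk-5 (II:11484753-11484853). Capitals mark GTTCNANNC on either strand, the form of the B box, an internal promoter element of tRNA genes that RNA polymerase III uses. In the last 2, from nhr-19 (II:9603566-9603666) and zfp-1 (III:8800159-8800259), capitals mark the AAGTG core on either strand.
frm-7: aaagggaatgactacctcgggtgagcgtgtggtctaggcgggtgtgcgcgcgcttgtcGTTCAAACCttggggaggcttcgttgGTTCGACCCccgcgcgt
cutl-18: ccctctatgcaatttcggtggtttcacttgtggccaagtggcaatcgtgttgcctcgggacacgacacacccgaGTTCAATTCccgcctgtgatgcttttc
twk-5: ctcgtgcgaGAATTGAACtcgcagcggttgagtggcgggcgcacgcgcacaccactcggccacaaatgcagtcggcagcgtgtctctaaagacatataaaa
nhr-19: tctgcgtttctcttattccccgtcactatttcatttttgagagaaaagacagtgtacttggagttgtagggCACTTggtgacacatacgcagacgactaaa
zfp-1: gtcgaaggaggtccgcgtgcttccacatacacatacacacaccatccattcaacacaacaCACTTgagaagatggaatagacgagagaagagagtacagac

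Most of the strongest intronic peaks sat at nested noncoding RNA genes. Signal is the authors' own value per peak on a scale that is not stated, so it is used here only to order peaks within a list. The highest, 596, lay in intron 4 of ppfr-1, which encodes a regulatory subunit of protein phosphatase 4 (I:9382793-9383097), with a signal of 139.6 in replicate 1 (rank 82) and 457 in replicate 4 (rank 10). Its summit was 9 bp inside F16A11.7, a name that the annotation gives to ncRNA genes on both strands there. A neighbouring peak in the same intron (I:9383024-9383280, signal 379) overlapped it, so these are not independent sites. Next came pxn-1, a peroxidasin gene (V:8500427-8500684, signal 545), with 211 in replicate 1 and 332 in replicate 4. The frm-7 peak (V:12303503-12303771) had a signal of 512 and ranked 13 in replicate 1 and 49 in replicate 4. In cutl-18, a cuticlin-like gene (V:11314097-11314359), the signal was 488, with 147.3 and 337 in replicates 1 and 4. Those last 3 summits lay in short introns of 341, 267 and 322 bp that each hold a snoRNA gene.

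Peaks at genes of other RNA classes followed. In ints-8, an Integrator subunit gene, the peak (I:13463827-13464099, signal 378) had its summit 4 bp upstream of rpr-1, which encodes the RNA of RNase P, and its signals were 145.0 and 242 in replicates 1 and 4. The dynein heavy chain gene dhc-4 held a peak (III:10989525-10989751, signal 348) 34 bp upstream of an snRNA gene in intron 31, with 123.0 and 233 in the replicates. Other peaks of the 20 strongest at snoRNA genes were in the potassium channel gene twk-5 (signal 329), W08G11.3 (308), the condensin gene mix-1 (298.4), the MAP kinase gene mpk-2 (285) and Y43F8C.7 (280). In all, 12 of these 20 peaks had a noncoding RNA gene within 200 bp, and for 9 of them it was a snoRNA or snRNA gene.

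The other 8 of the 20 strongest had no such gene nearby, and most of them lay in long introns. The gei-4 peak (III:349740-350108, signal 385) was in a first intron of 6235 bp, with 103.9 in replicate 1 and 291 in replicate 4. Y111B2A.12 (III:12612544-12612824, signal 334) had 129.6 and 206, and Y43F8B.2 (V:19529317-19529511, signal 332) had 108.5 and 215, in introns of 7076 and 9619 bp. For epg-9 (IV:2602050-2602292, signal 324) the values were 106.9 and 228, in an intron of 1824 bp. A pair of peaks in pqn-41, a gene for a glutamine- and asparagine-rich protein (III:1921278-1921586, signal 313, and III:1923572-1923784, signal 309.5), shared an intron of 7776 bp. The nuclear receptor gene nhr-19 (II:9603533-9603720) had a signal of 309.1, with 119.3 and 189 in the replicates. The zfp-1 gene, which encodes a chromatin factor of the AF10 kind, completed the group (III:8795663-8795962, signal 305, with 93.8 and 221).

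Most of the 250 peaks were weaker than these. Signal ran from 91.8 to 596 with a median of 123.7, close to the 125.6 of autosomal intergenic peaks and below the 142.3 of promoter peaks. A signal of 200 or more was reached by 45 of the intronic peaks (18%), 18.6% of the intergenic and 28.4% of the promoter peaks. When the autosomal peaks were ordered by signal into 4 equal groups, intronic peaks made up 17.96% of the weakest (81 of 451), 13.3% and 13.6% of the next ones, and 10.6% of the strongest (48 of 451). These shares were not tested, because the peaks come from a single set made from both replicates.

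Both replicates marked nearly all of these regions. A summit within 100 bp was listed for 237 in replicate 1 and 245 in replicate 4, and for 234 (93.6%; 95% Wilson interval 89.9% to 96.02%, counting error only) in both. Each replicate list was filled to 30000 regions and so contains background, and a match alone can therefore be to a low-ranked region. The median rank was 1522 in replicate 1 and 1294 in replicate 4. When each replicate list was cut to its 2328 strongest regions, replicate 1 still held 161 of the 250 (64.4%) and replicate 4 held 205 (82%). Both held 131 (52.4%), against 53.4% of intergenic and 65.2% of promoter peaks. For 15 peaks neither replicate ranked the region that high. The rank of single peaks could differ widely, as for kin-4 (IV:11433702-11434045, rank 16194 in replicate 1 and 487 in replicate 4). Over the 234 matched peaks Spearman's rho of the signals was 0.51, across regions that share libraries and were selected for reproducibility.

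**Figure D1:**
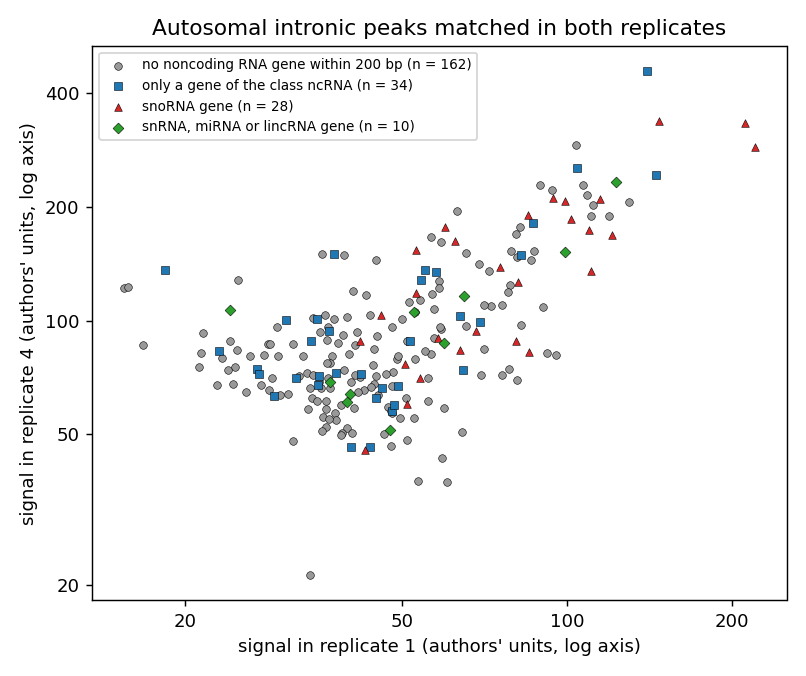
Each point is 1 of the 234 intronic peaks with a summit within 100 bp in both replicates, placed by its signal in replicate 1 (x) and replicate 4 (y), on log axes in the authors' units, and marked by the noncoding RNA gene within 200 bp. Peaks at snoRNA genes lie mostly toward the upper right, and the highest point on the y axis, at 457, is the ppfr-1 peak at an ncRNA gene.

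The summits were concentrated in long introns. The shortest annotated intron around each summit had a median length of 3351.5 bp (range 64 to 19927). As a reference, positions every 50 bp that would meet the same rule were taken from the autosomes, 449779 in all, and called eligible intron sequence. Their median intron length was 938 bp. Introns of 2000 bp or more held 169 summits (67.6%; 95% Wilson interval 61.6% to 73.1%) and 27.4% of eligible sequence. Introns of 500 to 1000 bp held 16 summits (6.40%) and 23.7% of eligible sequence. Between 200 and 500 bp lay 31 summits (12.4%) and 16.7% of eligible sequence, the class into which most of the introns with snoRNA genes fall. A first intron of some transcript held 124 summits (49.6%; 43.5% to 55.8%) against 27.9% of eligible sequence. Summits lay a median of 918.5 bp from the nearer splice site and 3698.5 bp downstream of the most upstream 5' end of the host gene. For 144 of them (57.6%) a further annotated 5' end of the same gene lay downstream. Neither this share nor these distances were computed for eligible sequence, and the rule bars summits close to any 5' end. They therefore describe where the summits lie and show no excess.

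**Figure D2:**
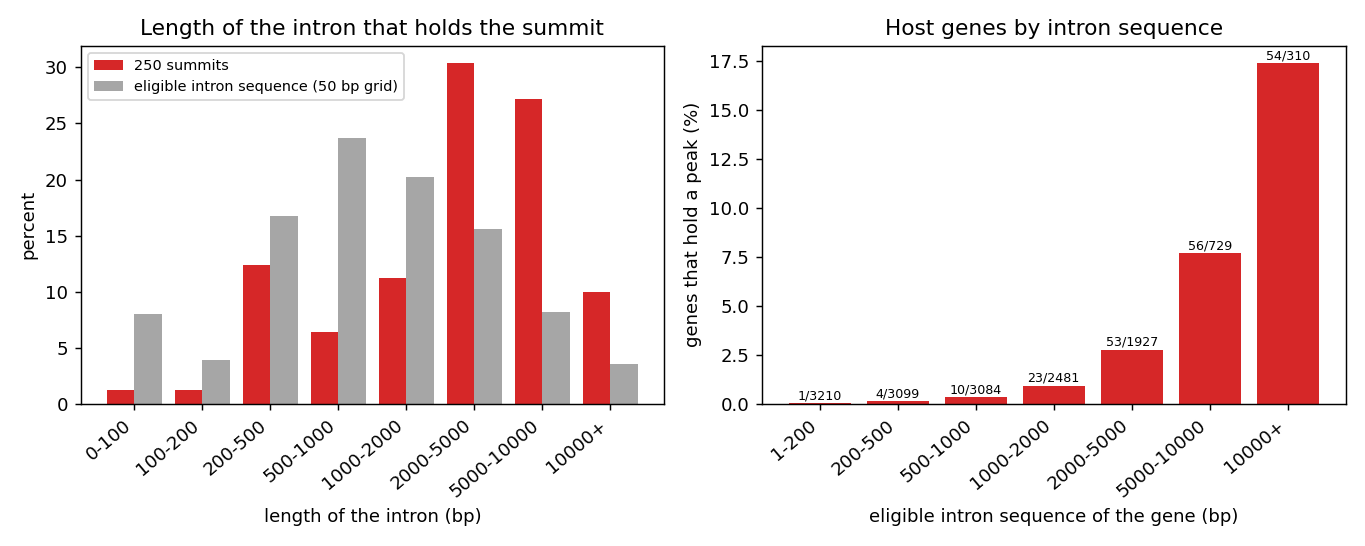
The left panel gives the percent of the 250 summits (red) and of eligible intron sequence (grey) by the length of the intron around them, where introns of 2000 bp or more hold 67.6% and 27.4%. The right panel gives the percent of autosomal genes that hold a peak by their eligible intron sequence, with hosts over genes above each bar, reaching 54 of 310 genes at 10000 bp or more.

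The 250 peaks fell in 201 host genes. That is 1.35% of the 14840 autosomal protein-coding genes with any eligible intron sequence. Hosts were long, with a median length of 10278 bp against 2220 bp for the other genes, and 141 of them (70.1%) had at least 2 annotated 5' ends against 27.4%. The shares with at least 2 such ends were not compared at like gene length. The share of genes that held a peak was 0.927% at 1000 to 2000 bp of eligible intron, 7.68% at 5000 to 10000 bp and 17.4% (54 of 310) at 10000 bp or more. A promoter peak was also present at 49 hosts, 24.4%, against 7.83% of all 14840 genes. Among genes with 2000 bp or more of eligible intron, where 5.5% held a peak and 9.37% had a promoter peak, the share with a promoter peak was 23.9% of the 163 hosts and 8.53% of the 2803 other genes. These shares describe genes of 1 peak set and were not tested.

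Most hosts (168) held a single peak, 24 held 2, and 9 genes held 3 to 5 peaks. Protein phosphatase gene ppfr-1 had 5, spread from 6053 to 16910 bp from its first 5' end, with signals of 123.8 to 596. The weakest of these matched only a region of rank 23990 in replicate 4. All 4 peaks of pqn-41 lay in a single intron and ranged from 172 to 313. In zfp-1 the 4 peaks ranged from 94.9 to 305, and one of them had no match in replicate 1. The 4 peaks of egl-27, whose product resembles a subunit of the NuRD chromatin complex, were weak (91.8 to 148.5) and spread over 3 introns of a gene with 14 annotated 5' ends. F57A8.1 had 4 peaks of 93.6 to 133.7, and ncl-1, a regulator of nucleolus size, had 4 of 92.7 to 112.6. Each of the remaining hosts had 3, namely sea-2, a zinc finger gene that takes part in counting X chromosomes (102.8 to 184.7), daf-16, the FOXO factor of insulin signalling (94.02 to 184.1), and let-526, a SWI/SNF subunit gene (97.2 to 152.7). In all, 10 of the 250 peaks had another within 500 bp. They include a pair in zfp-1 with overlapping regions and a pair in let-526, so not every counted peak is an independent site.

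**Figure D3:**
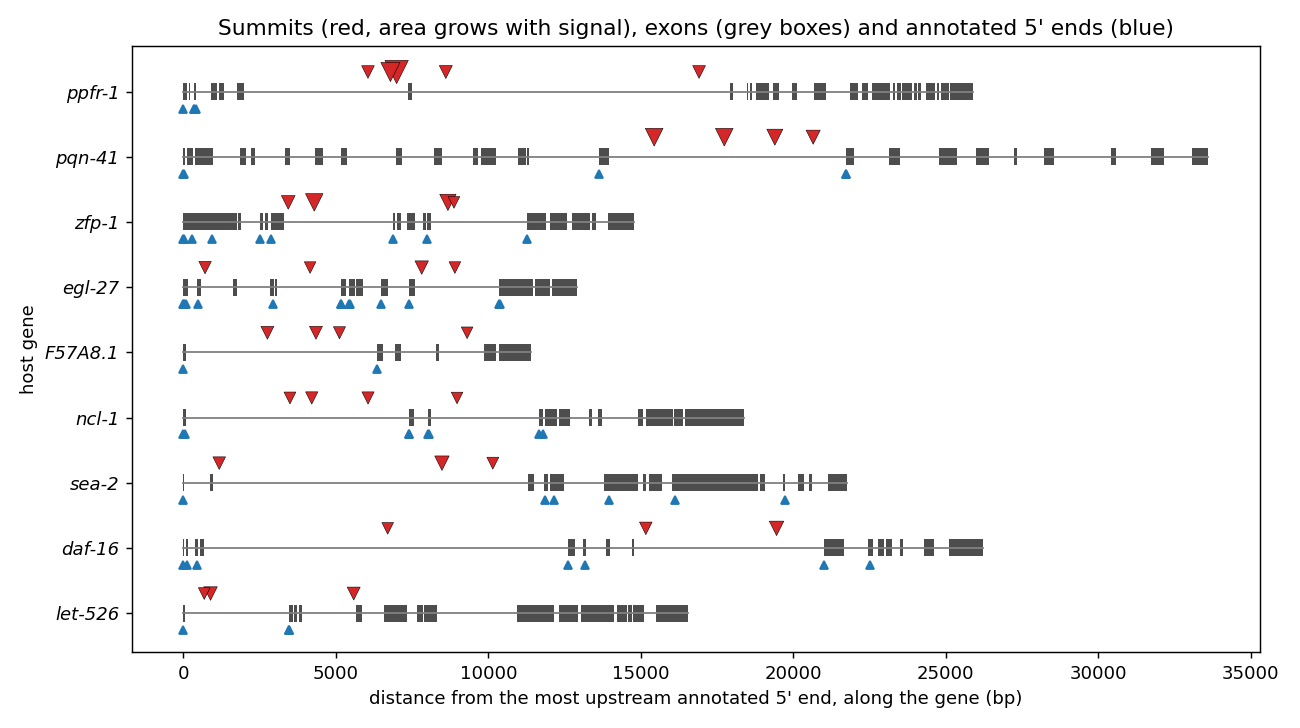
The 9 host genes with at least 3 intronic peaks are drawn to scale along the x axis, in bp from their most upstream annotated 5' end. Red triangles are summits with area growing with signal, grey boxes are exons of any isoform and blue triangles are annotated 5' ends. The summits of pqn-41 fall in 1 intron. Those of egl-27 are scattered between its 14 starts, and the rule itself bars summits close to any start.

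The host genes were also read against 11 gene lists, which were chosen with earlier results of these data known and were not tested for enrichment. The lists hold only some genes of each kind, so hosts of the same kind can lie outside them. Neither shares nor densities were matched for intron length. Introns of 2000 bp or more held 67.6% of all summits and 27.4% of eligible sequence. Beside the 1.35% of all genes, 11 of 61 transcription factor genes other than homeobox and nuclear receptor genes held an intronic peak (18.03%). Their 18 peaks came to 66.3 per Mb of eligible intron, against 11.1 per Mb over all autosomal genes. The strongest were in lag-1, the DNA-binding effector of Notch signalling (signal 214.6, with 58.7 and 161 in replicates 1 and 4), and mef-2 (201.3, with 78.5 and 123.9). Next were hlh-30, the worm TFEB of lysosome genes (198.4, with 77.9 and 119.0), and fkh-7 (197.6, with 35.7 and 150.5). Others were daf-16, daf-14, egl-27, hlh-11, lin-29, jun-1 and skn-1, with a strongest peak of 96.7 to 184.1. By contrast, 0 of 51 homeobox genes held one, although their introns gave 0.126 Mb of eligible sequence. The Wilson interval of that share reaches 7.005%, so the count allows a share above that of all genes.

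Signalling and neuronal genes were also among the hosts. Of the developmental signalling list 7 of 59 genes held a peak (11.9%), led by the ERK gene mpk-1 (signal 181.0, with 91.7 and 82.04 in replicates 1 and 4) and the TOR kinase gene let-363 (147.4, with 57.1 and 90.04). Below them were the protein kinase A gene kin-1 (112.4) and the CaMKII gene unc-43 (111.2). The calcineurin gene tax-6 (110.1), the insulin receptor gene daf-2 (106.9) and pkc-1 (98.4) were weaker. In the synapse and neuronal transport list 7 of 53 held one (13.2%). They were unc-41 (203.1), unc-76 (141.9), the kinesin gene unc-104 (138.5), unc-33 (129.9), mig-10 (103.4), syd-1 (102.7) and ida-1 (102.2). The unc-41 peak, with 75.5 and 138.6 in the replicates, lay at a snoRNA gene in an intron of 243 bp. The unc-33 peak ranked 22867 in replicate 1 and 609 in replicate 4. Peaks came to 30.5 per Mb of eligible intron in the signalling list and 28.2 per Mb in the synapse list. These values were not matched for intron length, so they show no excess over genes with introns of like length. Among all genes with 2000 bp or more of eligible intron, 5.5% held a peak. Of the guidance and adhesion list, 4 of 43 held a peak, and at 14.2 per Mb its density was near the 11.1 per Mb of all genes. They were the L1CAM gene sax-7 (159.5), the Trio gene unc-73 (153.7), cdh-1 (111.9) and rig-4 (105.0).

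The remaining lists had 0 to 2 hosts each. Of the listed nuclear hormone receptors 2 of 30 held a peak, nhr-19 and nhr-34 (128.2), or 26.1 peaks per Mb, and nhr-46, which is not on the list, held 2 (155.5 and 133.5). The muscle list had 2 of 40, the tropomyosin gene lev-11 (103.9) and the myosin light chain gene mlc-3 (92.8), at 10.48 per Mb. The ion channel and receptor list had 2 of 54, glr-2 (102.7) and trpa-1 (92.4), at 7.08 per Mb, and does not include the potassium channel gene twk-5. The list of RNA binding and splicing regulators had 1 of 39, larp-1 (203.6), at 9.91 per Mb, and lacks the host nova-1 (109.6). The chromatin list had 1 of 56, zfp-1, whose 4 peaks, with an overlapping pair among them, gave 26.9 per Mb. It lacks let-526, and egl-27 was counted with the transcription factors. None of the 37 ribosome and translation genes with eligible introns held one, and those introns summed to only 0.00581 Mb.

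**Figure D4:**
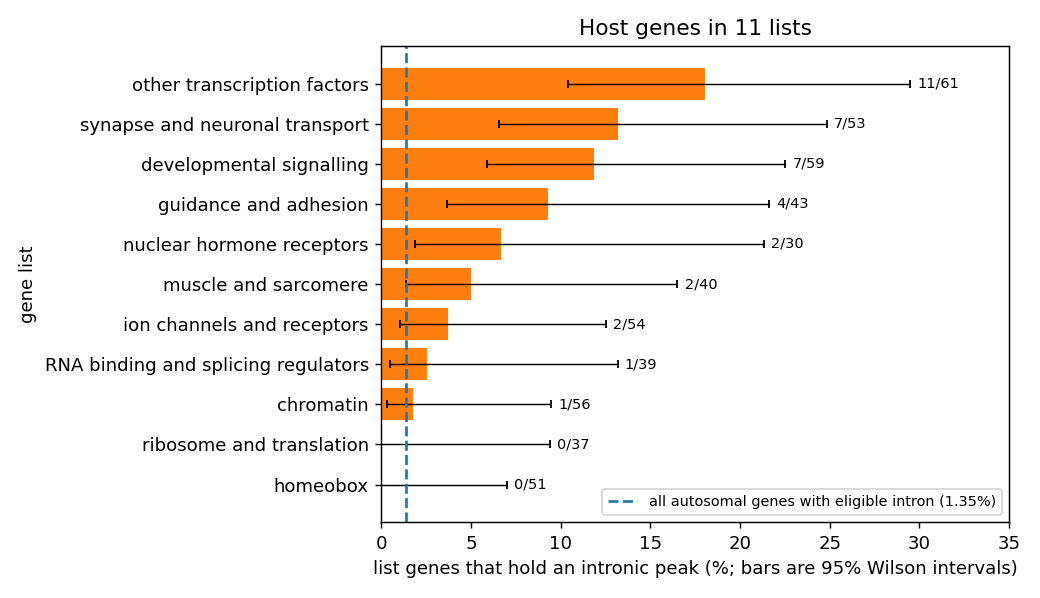
Bars give the percent of genes with eligible autosomal introns in each of 11 lists that hold an intronic peak, with 95% Wilson intervals (counting error only) and the counts at the right. The dashed line is the 1.35% of all such genes, not matched for intron length. The list of other transcription factors, at 11 of 61, lies furthest to the right.

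A noncoding RNA gene lay within 200 bp of 75 of the 250 summits (30%), against 3.08% of eligible intron sequence. This count covers snoRNA, snRNA, miRNA, lincRNA, rRNA and the broad annotation class ncRNA, and by the rule no tRNA gene was within that distance. Where several were near, a gene of another class was taken before any of the class ncRNA, and then the nearest. The gene taken was a snoRNA gene for 28 peaks (11.2%). For comparison, 0.207% of eligible sequence had any snoRNA gene within 200 bp. It was an snRNA gene for 6 peaks, a miRNA gene for 2 and a lincRNA gene for 2. For the other 37 only genes of the class ncRNA were near. The snoRNA peaks had a median signal of 221.7 (range 95.2 to 545), and 24 of the 28 were at or above the median of the 250. Peaks with no noncoding gene had a median of 118.2 and those with only an ncRNA gene 118.2 as well. Introns at snoRNA peaks had a median length of 328 bp, against 4080 bp around the 175 summits with no noncoding gene.

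Most summits at snoRNA genes lay upstream of them. The distance was a median of 30 bp upstream of the 5' end (quartiles 55.5 and 2 bp upstream), with 21 of 28 upstream of it and 5 inside the gene. The snoRNA gene was on the host gene's strand for 20 of the 28. Among peaks counted at an snRNA gene, the one in F58G1.7 at sup-6 (signal 242.8) was next to that of dhc-4 in strength. The weaker ones included the SL2 leader RNA gene sls-2.16 in glr-2. The miRNA genes were mir-2214 in B0361.11 (180.8, summit 27 bp upstream) and cel-mir-229 in the translation regulator gene gcn-1 (143.1, 191 bp upstream). The lincRNA genes were linc-90 in gei-4 (158.2) and linc-143 in daf-2.

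The bases under the summits were rich in G and C. Median GC content of the 101 bp window was 49.5%, against 36.6% and 35.6% in windows 300 bp to lower and higher coordinates and 32.7% in eligible intron sequence. Other autosomal classes had similar medians, with 48.5% at intergenic and at promoter peaks. Only 13 windows (5.2%) were soft-masked over 50% or more of their bases in the RefSeq sequence, where lower case marks repeats and low-complexity stretches, against 27.2% of the lower flanks and 51.3% of eligible sequence. The part of mappability and base composition in these values was not tested.

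The AAGTG core was more frequent at summits than in their flanks in the main comparison, with a small margin. On either strand it lay within 50 bp of 72 summits (28.8%), in 52 of the lower flanks (20.8%) and in 17.96% of eligible windows. Of the peaks that differed from their flank, 55 had it only at the summit and 35 only in the flank, an odds ratio of 1.57 (95% exact interval 1.01 to 2.47, two-sided exact McNemar p = 0.0446). That test counts peaks, not animals, and was set with earlier results of these data known. It treats peaks as independent, although 10 of them had another within 500 bp. Of the 13 alternatives tried, 5 gave a p above 0.05, among them the strongest regions of replicate 4 alone (odds ratio 1.36, exact p = 0.128). Of the others, the one with 500 bp from tRNA genes left the same 250 peaks, so it repeats the main test. Among the 175 summits with no noncoding gene nearby, 30.3% held it, and the odds ratio was 2.10 (exact p = 0.00715). Its share was 27.1% over all 2328 reproducible peaks. The 5 strongest peaks with AAGTG were in pxn-1, cutl-18, pqn-41, nhr-19 and ppat-1 (signal 263).

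Other sequences are given with no test, and CTGCGTCTC and GTTCNANNC were chosen after the windows had been seen. GAGAG was not planned for a test either. Among words of 6 bases in these same windows, GAGAGA (34.4% of summits, 4.01% of eligible windows) and AGAGAG, which hold it, had the largest excess. The GAGAG shares thus describe these windows and are not separate support. GAGAG lay at 124 summits (49.6%), in 16% and 15.2% of the flanks and in 9.48% of eligible windows. It was at 54.3% of summits with no noncoding gene and at 5 of 28 snoRNA peaks. It was also common at intergenic (57.9%) and promoter peaks (42.6%). CTGCGTCTC lay at 20 summits (8%), in 0 of 250 lower flanks and 1 higher flank, and in 0.462% of eligible windows. Of those 20, 18 had no noncoding gene nearby, and none was at a snoRNA peak. Its share was 13.8% at intergenic and 9.26% at promoter peaks. GTTCNANNC was found mostly at the snoRNA peaks, with 11 of 28 snoRNA peaks (39.3%), 6 of 175 summits with no noncoding gene (3.43%) and 2.83% of eligible windows. It was in 59 of 118 windows at autosomal tRNA genes, peaks that the rule leaves out. TAAT, the core of many other homeodomains, was at 24.4% of summits and 61.2% of lower flanks. Median GC content was 49.5% at summits and 36.6% in those flanks. Other words of A and T alone were also scarce at summits, such as AAAATT (9.6%, against 59.3% of eligible windows). The part of base composition in the TAAT shares was not tested. Each search took both strands of the same 101 bp window, and a match describes letters and not a binding site.

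Peaks were denser in the middle of the chromosomes. With each autosome cut into 3 equal parts, the middle parts held 110 peaks, or 18.5 per Mb of eligible intron, and the outer parts 140, or 8.46 per Mb. The middle was higher on all 5 chromosomes, with 15.5 against 7.45 per Mb on I, 26.01 against 10.7 on II, 21.7 against 13.0 on III, 14.5 against 7.83 on IV and 17.3 against 3.82 on V. Over whole chromosomes III (67 peaks, 15.04 per Mb) and II (55, 14.6) were densest. IV (44, 9.64), I (48, 9.64) and V (36, 7.61) were lower.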

How the data were processed

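Regions on build ce11 were deposited as 1 list for each replicate, 1 for both pooled and 1 that passed an irreproducible discovery rate threshold, per the labels and file descriptions. The sources used here name no aligner, caller or threshold value. Each region has a signal value and a −log10 q value as deposited by the authors, and 132 of the 250 peaks are at the q ceiling of 3.46, so only signal was used for order. Without read counts in these lists, library depth is unknown. Every coordinate lay within the chromosome lengths of WBcel235. Genes came from Ensembl release 115.

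Members, gene lists and the AAGTG test were chosen with earlier results of these data known. Named peaks were the 20 strongest, hosts with 3 or more, those at noncoding genes, the 4 strongest hosts of a list, and those with AAGTG or of highest rank in a replicate. Of 728 listed symbols 10 had no match in the annotation. With 1 group of 2 replicates no test between groups was possible, and the McNemar test, checked on simulated data, was the only one made. Intervals are 95% Wilson or exact binomial. Alternatives covered the promoter window, tRNA distance, exons, whole peaks, signal, each replicate alone, distances and motif windows. Those for the list counts, and those without noncoding genes or the class ncRNA, were added after the data were seen. The tools were scipy 1.17.1, pandas 2.3.3, matplotlib 3.10.9, numpy 2.4.6 and Python 3.11.15.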

Additional observations from a re-analysis of the deposited data

How the results depend on the processing

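No comparison between groups was possible because there was 1 group, and the only pairing was of each summit with its own flank. Of 77 recomputed values, 55 were counted as unchanged. Shares and medians had to stay within the interval of the reported one. AAGTG had to keep an exact p below 0.05, which 8 alternatives did and 5 did not. Counts of peaks and of list hosts have no such interval and were judged by the size of the change. Among these counts, 175 to 304 peaks and 28 to 44 hosts were taken as unchanged. Peaks above the median signal of the reproducible set numbered 108 (median signal 181.3, 17 list genes as hosts, 99.1% matched in both replicates, 38.9% near a noncoding gene). The match in both replicates was 76.4% within 50 bp and 98% within 200 bp. With the strongest regions of 1 replicate alone it ran from 79.6% to 81.0%. Those regions always match their own list, so these values give only the match to the other replicate's list. The share near a noncoding gene was 19.6% with summits kept out of exons of any gene, 36% within 500 bp, 12.4% with the summit inside the gene and 15.2% without the class ncRNA. Median intron length was 4211 bp and the first-intron share 55.8% for peaks wholly free of coding-gene exons, and 4080 bp and 58.3% without noncoding genes nearby. For AAGTG the odds ratio was 1.58 with promoters of 2000 bp (exact p = 0.0980), 1.59 for whole peaks (0.0639), 1.21 above the median signal (0.644), 1.48 within 25 bp (0.185), and 1.36 to 1.58 in each replicate alone. The cause was not tested. Library depth is unknown and the control was not used here, which limits all values.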
